A study of Mus musculus with 5 samples.

Results

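The nuclear subunits of oxidative phosphorylation were taken from the deposited gene list by patterns in the gene symbol, for complex I (Nduf a, b, c, s and v genes), complex II (Sdha to Sdhd), complex III (Uqcr genes and Cyc1), complex IV (Cox4 to Cox8 genes with a, b or c after the digit) and complex V (Atp5 genes). Names of pseudogenes, the Ndufaf assembly factors and Ndufa4l2 were left out. The rule found 80 of the 28001 features, with 36 genes in complex I, 4 in complex II, 9 in complex III, 16 in complex IV and 15 in complex V. It used names only and no measured value. Subunit genes whose names miss the patterns are not in the counts and sums: Cox4i1 and Cox4i2 of complex IV, Ndufab1 of complex I, and Usmg5 and 2010107E04Rik of complex V. Of these Cox4i1 had 930 to 1259 CPM (UMIs of a gene scaled to a common total over all UMIs of its class and library) in rest cells, those that are neither tenocytes nor mural cells, and Usmg5 and 2010107E04Rik had 177 to 333 CPM.

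Oxidative phosphorylation is the last stage of aerobic energy production. Complexes I and II pass electrons from NADH and succinate to ubiquinone, complex III passes them on to cytochrome c, complex IV reduces oxygen, and complex V, the ATP synthase, makes ATP from the proton gradient. Subunits of complexes I, III, IV and V come from both the nuclear and the mitochondrial genome, whereas complex II is nuclear only, and several complex IV subunits have tissue isoforms that are used in muscle, lung or testis.

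The cells were tdTomato-positive mesenchymal progenitors sorted from hindlimb muscle of C57BL/6J mice that carried Hic1 CreERT2/CreERT2 and Rosa26 LSL-tdTomato/+. All mice, the quiescent group included, were 8 weeks old when they received tamoxifen, at 2.5 mg in 100 uL of sunflower oil daily for 5 days, followed by 10 days without it. The quiescent library is the reference, and the other 4 libraries were made on days 1, 2, 4 and 14 after notexin, a snake toxin that destroys muscle fibres. The label marks cells in which Hic1 drove the recombinase, so the data cover that lineage and not the whole muscle.

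Each time point is 1 droplet library (10x Chromium, 3' chemistry), so a fold between days compares 2 libraries and has no replicate check. The labels do not say how many mice went into a library. Cells with at least 500 genes and at most 10% mitochondrial UMIs numbered 2138, 4816, 2549, 4107 and 3475 in the quiescent, day 1, day 2, day 4 and day 14 libraries, with median depths of 3771.5 to 10765 UMIs. Any 2 libraries shared between 8 and 26 barcodes. Each library was split into 3 classes. Tenocytes had at least 5 UMIs of Tnmd, Fmod, Kera and Chad together (1394 cells), mural cells had at least 5 UMIs of Rgs5, Kcnj8, Abcc9 and Higd1b (608 cells), and the rest held 15077 cells. Markers outside the rule fitted these labels: Scx, Mkx, Thbs4, Comp and Tnc summed to 3368 to 10366 CPM in tenocytes and to 84.8 to 477 CPM in the rest, and Pdgfrb, Notch3, Cspg4, Mcam and Myh11 to 913 to 2807 CPM in mural cells and 43.0 to 163 CPM in the rest. Doublets remained in the data. Intervals are 95% and cover counting error only.

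In the rest cells, the 80 subunit genes summed to 21082 CPM in the quiescent library, 26606 CPM on day 1, 26931 CPM on day 2, 23045 CPM on day 4 and 21025 CPM on day 14. Days 1 and 2 were thus 1.26-fold (1.255 to 1.269) and 1.28-fold (1.271 to 1.284) above quiescent, day 4 was 1.09-fold above it, and day 14 was at 0.997-fold. The percentage of a cell's UMIs from these genes was likewise higher on days 1 and 2, with medians over cells of 2.08% in quiescent, 2.63% on day 1, 2.62% on day 2, 2.21% on day 4 and 2.09% on day 14. The ratio differed between complexes: complex II reached 1.48-fold and 1.66-fold above quiescent on days 1 and 2, complex V 1.45-fold on both days, complex III 1.38-fold and 1.21-fold, complex I 1.17-fold and 1.23-fold, and complex IV 1.10-fold and 1.13-fold. The sums of complexes III and IV include Cyc1, Uqcrfs1 and Cox5a, for which time point and library cannot be told apart. Cox5a alone had 146 CPM in quiescent and 420 CPM on day 1, beside complex IV sums of 4604 and 5047 CPM. The unit matters here, since a CPM is relative to all other genes: TMM and DESeq2 scaling moved the median of all genes by 0.34 and 0.56 on the log2 scale on day 1 and by 0.15 and 0.29 on day 2, upward, so the ratios of the subunits were larger with them.

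**Figure D1:**
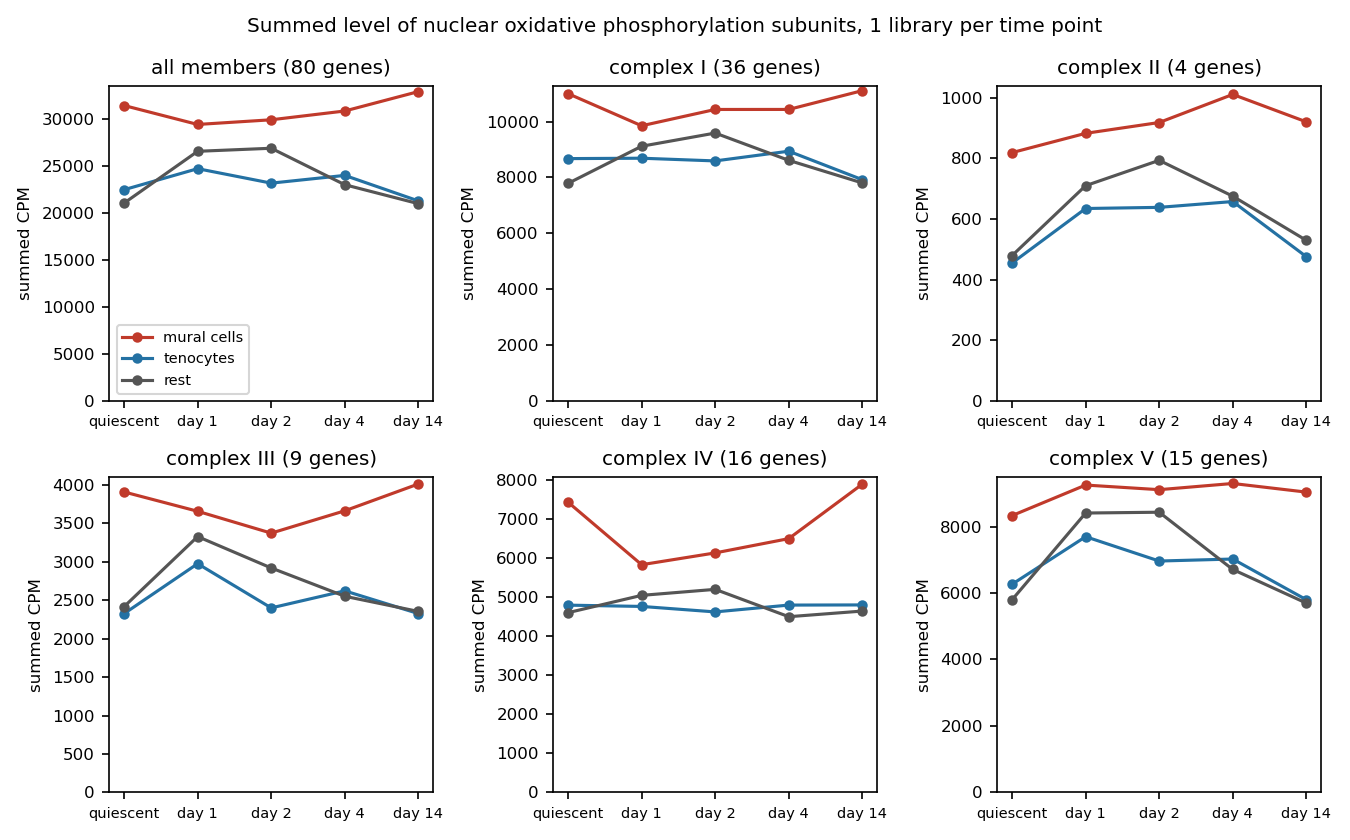
Summed CPM (y axis, from 0) of all 80 subunit genes and of each complex in the 5 libraries (x axis, in time order), with 1 line for mural cells, tenocytes and rest cells; each point is 1 library and carries no replicate error. In rest cells the sum was 26931 CPM on day 2, against 21082 CPM in the quiescent library, and mural cells lay above the rest at every time point on this scale.

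A ratio was read only where 1 of the 2 libraries held 20 CPM or more, which left 74 of the 80 subunit genes. Of these, 11 were at least 2-fold higher on day 1 than in quiescent rest cells, where 15.5% of 6045 genes were, and 3 were at least 2-fold lower, where 24.3% were. On day 2, 8 were higher (11.3% of all genes compared) and 4 lower (17.4%). On day 4, 0 were higher (6.34%) and 4 lower (9.92%), and on day 14, 0 were higher (1.04%) and 1 lower (0.643%). By CPM the shares past 2-fold were therefore near or below the background on days 1, 2 and 4. A ratio above 1 was more common among the subunit genes than among all genes. It was found in 55 of 74 on day 1, 58 on day 2, 52 on day 4 and 42 on day 14, where 45.0%, 48.7%, 51.2% and 49.0% of all genes had one. Single subunit genes differed widely, with log2 ratios from -1.43 to 1.58 on day 1. The median log2 ratio of the subunit genes was 0.45, 0.34, 0.22 and 0.02 on these 4 days, beside -0.15, -0.03, 0.02 and -0.01 over all genes. This depended on the scale. With TMM factors 25 of the 74 were 2-fold higher on day 1 (33.8%, beside 25.4% of all genes) and 1 lower (beside 14.9%), and on day 2, 15 were higher (20.3%, beside 15.5%) and 4 lower (beside 13.4%). With DESeq2 factors 37 of 74 were higher on day 1 (beside 33.1% of all genes) and 0 lower (beside 11.3%), and on day 2, 21 were higher (28.4%, beside 21.4%) and 4 lower (beside 10.3%), so under both scalings the share of higher subunit genes was above that of all genes. The share of higher genes among all genes called on day 1 moved likewise, to 62.9% with TMM and 74.5% with DESeq2, against 38.9% by CPM, and on day 2 to 53.6% and 67.5%, against 39.4%. On day 4 it was 54.7% with DESeq2 factors, against 39.0%.

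**Figure D2:**
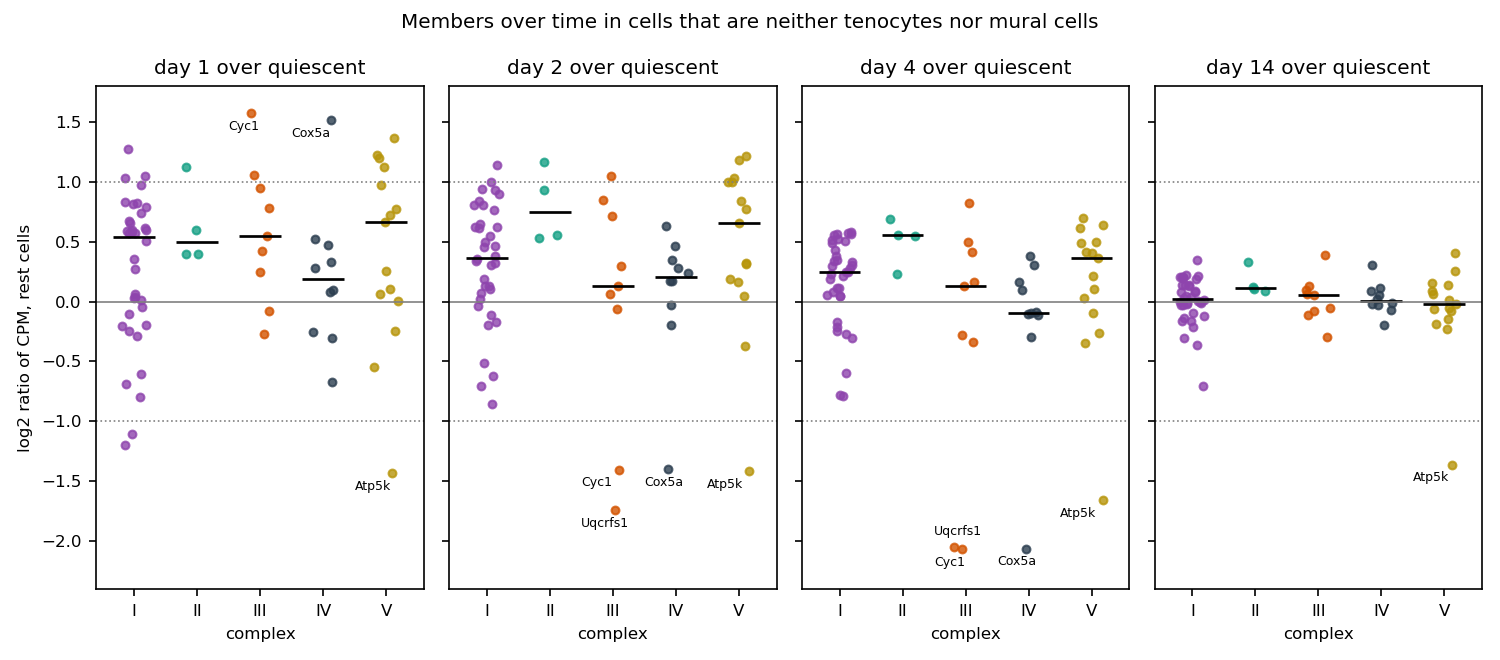
Log2 ratio of CPM over quiescent in rest cells (y axis) for each of the 74 subunit genes compared, by complex (x axis) and day (panels); each point is 1 gene, the black bar is the median of the complex, and dotted lines mark 2-fold. Points of complexes II and V lie mostly above 0 on days 1 and 2, and by day 14 all but Atp5k lie within 2-fold.

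The core of complex I, the 7 nuclear subunits that carry the electron path and its cofactors, differed more from quiescent than the accessory subunits around it. This split by role, and that of complex V below, was made after the values were seen. The 7 core genes summed to 773 CPM in quiescent rest cells, 1338 CPM on day 1, 1260 CPM on day 2, 1042 CPM on day 4 and 858 CPM on day 14. They were 1.73-fold (1.69 to 1.78) above quiescent on day 1 and 1.63-fold on day 2, and all 7 had ratios above 1 on both days. The 29 accessory genes were 1.11-fold and 1.19-fold above it. Among core genes, Ndufv2, an iron-sulphur subunit, had 123 CPM in quiescent, 252 CPM on day 1, 216 CPM on day 2, 181 CPM on day 4 and 157 CPM on day 14. Ndufs8, another iron-sulphur subunit, had 86.9, 146, 156, 125 and 95.3 CPM in the same order. Both were highest on day 1 or 2 and lay nearest to quiescent on day 14.

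Accessory subunits of complex I went both ways. Ndufa12, near the tip of the peripheral arm, had 169 CPM in quiescent, 411 CPM on day 1, 298 CPM on day 2, 251 CPM on day 4 and 187 CPM on day 14, and was 2.42-fold (2.29 to 2.57) above quiescent on day 1. Ndufa1 and Ndufa3, small membrane subunits, were lower on day 1, at 107 CPM and 109 CPM, against 232 CPM and 250 CPM in quiescent. Ndufa3 stayed below its quiescent level in each later library, at 138 CPM on day 2, 145 CPM on day 4 and 153 CPM on day 14. So did Ndufa1, at 142 CPM on day 2, 153 CPM on day 4 and 187 CPM on day 14. Ndufb2 had 183 CPM in quiescent and 154, 128, 106 and 143 CPM on days 1, 2, 4 and 14, lowest on day 4; its day 1 ratio of 0.841 was above 1 with TMM or DESeq2 factors. Ndufa13 (GRIM-19) was low on day 1 only, with 549 CPM in quiescent, 360 CPM on day 1 and 576, 674 and 603 CPM afterwards. Ndufa2 ran from 392 to 479 CPM over the 5 libraries.

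Complex II, succinate dehydrogenase, also belongs to the citric acid cycle. Its membrane anchor Sdhc had 67.0 CPM in quiescent rest cells, 148 CPM on day 1, 152 CPM on day 2, 109 CPM on day 4 and 84.5 CPM on day 14, with folds of 2.20 (2.01 to 2.42) on day 1 and 2.26 (2.06 to 2.49) on day 2. Sdhd, the other anchor, had 88.9, 135, 170, 130 and 95.9 CPM. The flavoprotein Sdha had 135, 178, 199, 158 and 143 CPM, and the iron-sulphur subunit Sdhb 188, 249, 273, 278 and 206 CPM. All 4 genes were above quiescent in each of the 4 injured libraries. On day 14 the intervals of the ratio for Sdha (0.985 to 1.15) and Sdhd (0.979 to 1.19) held 1.

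In complex III, Uqcrc1, a core protein, had 152 CPM in quiescent rest cells, 316 CPM on day 1, 315 CPM on day 2, 269 CPM on day 4 and 158 CPM on day 14. Uqcrq and Uqcrb, small subunits near the ubiquinone sites, had 516 CPM and 738 CPM on day 1, against 266 CPM and 503 CPM in quiescent. Uqcrh, the hinge protein, was at 0.831-fold on day 1 and between 1.04-fold and 1.12-fold later; its day 1 value was above 1 with TMM or DESeq2 factors. Cyc1 and Uqcrfs1 are described with the library sets.

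As grouped by name, the sum of complex IV differed least from quiescent among the 5 complexes on days 1 and 2. This sum lacks Cox4i1, which was at 1.11-fold on day 1 and 1.35-fold on day 2. It also lacks Ndufa4, since found in complex IV but counted in complex I by its name. Ndufa4 had 423 CPM in quiescent rest cells, 666 CPM on day 1 and 808 CPM on day 2. The order of the complexes is that of this grouping. The abundant genes Cox6a1, Cox8a and Cox6c were between 0.809-fold and 1.27-fold of quiescent on days 1 and 2. Cox6a1 had 546 CPM in quiescent rest cells, 577 CPM on day 1, 693 CPM on day 2, 583 CPM on day 4 and 518 CPM on day 14. Cox8a had 701, 748, 829, 654 and 759 CPM, and Cox6c 756, 612, 741, 699 and 744 CPM. Cox6b1, on the outer face of the complex, had 451, 648, 699, 589 and 470 CPM. Cox7a2l, a relative of Cox7a2, had 333, 209, 405, 413 and 412 CPM, low on day 1 only. Cox7b was 1.39-fold and Cox7a2 1.22-fold above quiescent on day 1.

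In complex V, the sums of the rotor and the catalytic head genes had the highest ratios on days 1 and 2. The c ring genes Atp5g1, Atp5g2 and Atp5g3, which encode the same mature ring protein, summed to 823 CPM in quiescent rest cells, 1730 CPM on day 1, 1566 CPM on day 2, 1080 CPM on day 4 and 776 CPM on day 14, a 2.10-fold ratio (2.05 to 2.16) on day 1. The 3 genes differed from each other. Atp5g1 had 325, 839, 648, 499 and 285 CPM in this order of libraries, and Atp5g2 had 285, 668, 650, 403 and 298 CPM. Atp5g3 had 214, 223, 267, 178 and 194 CPM, within 1.25-fold of quiescent in each library.

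The 5 genes of the F1 head summed to 1.67-fold above quiescent on day 1 and 1.60-fold on day 2. The catalytic subunit Atp5b had 595 CPM in quiescent, 1371 CPM on day 1, 1192 CPM on day 2, 787 CPM on day 4 and 600 CPM on day 14. Its partner Atp5a1 had 292, 636, 680, 454 and 349 CPM, and the central stalk subunit Atp5d 275, 541, 435, 355 and 365 CPM. Atp5e, another of the 5, went the other way by CPM, with 585, 399, 453, 461 and 499 CPM. In tenocytes Atp5e was at least 2-fold lower on days 1 and 2, at 389 and 364 CPM, against 783 CPM in quiescent. Peripheral stalk genes were at 1.33-fold on day 1 and 1.48-fold on day 2, with Atp5o, which links the stalk to F1, at 257 CPM in quiescent and 439, 527, 418 and 283 CPM on days 1, 2, 4 and 14.

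The 3 membrane accessory genes of complex V summed to 0.895-fold of quiescent on day 1, a ratio above 1 with TMM or DESeq2 factors. Atp5l among them had 795, 855, 891, 857 and 767 CPM. Atp5k, the e subunit, which helps ATP synthase form dimers, had the lowest ratio of all subunit genes compared on days 1 and 14. It had 230 CPM in quiescent rest cells, 84.6 CPM on day 1, 85.5 CPM on day 2, 72.2 CPM on day 4 and 88.8 CPM on day 14, so the quiescent library alone was high. The day 14 library, in which the other genes were back near quiescent, held it at 0.387-fold (0.358 to 0.418). The same was seen in tenocytes, with 285 CPM in quiescent and 83.2 to 107 CPM later, and in mural cells, with 417 CPM in quiescent and 81.9 to 183 CPM later. Ndufa3 was likewise highest in the quiescent library in each class, by a smaller fold, with 249 CPM in quiescent and 87.2 to 154 CPM later in tenocytes, and 239 CPM in quiescent and 89.2 to 203 CPM later in mural cells. Ndufa1 was highest there too, with 292 CPM in quiescent tenocytes and 134 to 197 CPM later. Mural cells had 275 CPM of Ndufa1 in quiescent and 145 to 247 CPM later. A difference that sets 1 library apart in all 3 classes cannot be told apart from the library itself.

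To set the letters of the promoters beside these values, the window from 250 bases before to 50 after each RefSeq transcription start (GRCm38.p6) was searched, on both strands, for the palindromic site of NRF1, a factor known to act on many respiratory genes (its letters are the first block of capitals in each line given here), and for CCGGAAG, the core of ETS sites such as that of GABP. Of the 80 genes, 67 had a window by symbol or synonym. The NRF1 letters were in 5 of 67 (7.46%), beside 1.07% of 27025 genes with a window, and the ETS letters in 16 of 67 (23.9%), beside 9.93%; Atp5k and Cox6a1 held both. With 1 mismatch allowed the shares were 34.3% beside 7.13% and 82.1% beside 62.7%. Of the 5 genes with the NRF1 letters, 4 held them before the start, and these stretches are shown because their genes had different ratios on day 1: Atp5g2 was at 2.34-fold of quiescent, Ndufa11 (249 CPM, against 243 CPM) and Cox6a1 (1.06-fold) near it, and Atp5k at 0.369-fold. Capitals mark the searched letters. They are from chr15:102671060-102671109 (minus strand) for Atp5g2, chr5:108434420-108434469 (minus) for Atp5k, chr5:115348959-115349140 (minus) for Cox6a1 and chr17:56717682-56717731 (plus) for Ndufa11.
Atp5g2: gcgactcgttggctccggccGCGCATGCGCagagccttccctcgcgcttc
Atp5k: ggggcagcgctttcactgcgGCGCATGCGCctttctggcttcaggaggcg
Cox6a1: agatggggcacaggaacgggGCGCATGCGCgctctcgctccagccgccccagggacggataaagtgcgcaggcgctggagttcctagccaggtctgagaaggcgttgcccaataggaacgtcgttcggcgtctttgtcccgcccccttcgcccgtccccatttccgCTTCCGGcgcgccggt
Ndufa11: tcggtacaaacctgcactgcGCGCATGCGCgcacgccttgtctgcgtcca
The second block of capitals in Cox6a1 is the ETS core on the other strand. The letters alone did not go with one direction in these libraries, and a match is no evidence of binding.

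A set of 3 subunit genes split the libraries in another way. Cyc1 (cytochrome c1), Uqcrfs1 (the Rieske protein) and Cox5a were more than 2-fold lower in both the day 2 and the day 4 library than in each of the other 3, in all 3 classes. In rest cells 1.26% of 6498 genes compared did so, in mural cells 1.43% and in tenocytes 1.43%. None was more than 2-fold higher in both, where 0.846%, 0.838% and 1.41% of genes in rest cells, mural cells and tenocytes were. Cyc1 had 87.2 CPM in quiescent rest cells, 262 CPM on day 1, 32.3 CPM on day 2, 20.1 CPM on day 4 and 95.7 CPM on day 14. Mural cells had 188, 301, 31.2, 48.4 and 246 CPM of it, and tenocytes 71.2, 234, 27.3, 23.9 and 95.2 CPM. Cox5a had 146, 420, 54.8, 34.2 and 155 CPM in rest cells, and Uqcrfs1 52.3, 62.4, 14.9, 11.9 and 68.8 CPM. The day 2 and day 4 libraries were the low pair for each gene in each class. Ndufab1, the mitochondrial acyl carrier protein, a complex I subunit that the naming rule leaves out, had 156, 370, 61.6, 41.7 and 166 CPM in rest cells. Time point and library cannot be told apart for these genes. They make up 3 of the 4 genes that were at least 2-fold lower on each of days 2 and 4. Without them 1 was lower on each day, and the sum over the other 77 genes had log2 ratios of 0.31 on day 1 and 0.37 on day 2, against 0.34 and 0.35 with them.

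**Figure D3:**
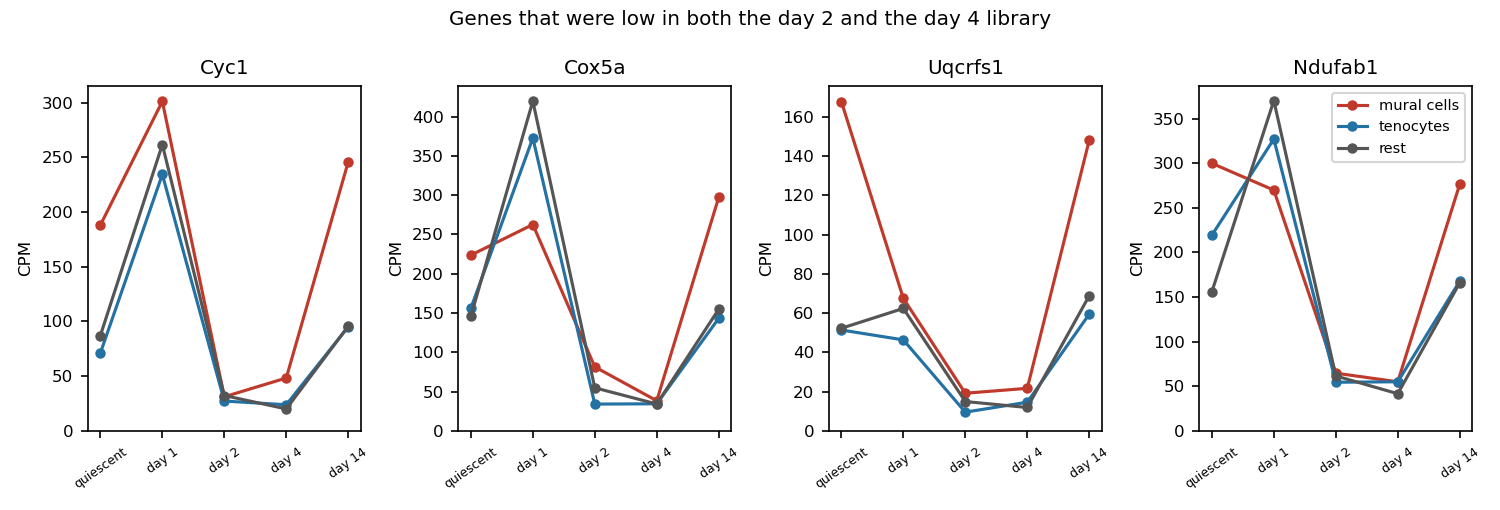
CPM (y axis, from 0) of Cyc1, Cox5a, Uqcrfs1 and Ndufab1 in the 5 libraries (x axis), with 1 line for mural cells, tenocytes and rest cells; each point is 1 library. The day 2 and day 4 points lie below the other 3 in every class, as for Cyc1 in rest cells at 32.3 and 20.1 CPM.

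As a sum, the subunits that mitochondria encode did not follow the nuclear ones on day 1. The 13 genes, such as mt-Nd1 of complex I and mt-Co1 of complex IV, summed to 25621 CPM in quiescent rest cells, 17340 CPM on day 1, 22323 CPM on day 2, 26374 CPM on day 4 and 23292 CPM on day 14. Day 1 was at 0.677-fold (0.673 to 0.680) and day 2 at 0.871-fold, values that passed 1 with DESeq2 factors (log2 0.01 and 0.10). Single genes differed by CPM. On day 1 mt-Nd1 was at 1.18-fold (1.161 to 1.196) of quiescent. The others were below it, from 0.174-fold for mt-Atp8 to 0.843-fold for mt-Atp6, with mt-Co1 at 0.407-fold. The ratio within a library does not depend on scaling: rest cells had 0.823 nuclear UMIs for each mitochondrial one in quiescent, 1.53 on day 1, 1.21 on day 2, 0.874 on day 4 and 0.903 on day 14. Tenocytes had 0.627, 1.22, 0.866, 0.842 and 0.801, and mural cells 0.901, 1.32, 1.33, 0.964 and 0.937. The ratio was above quiescent in every injured library in each class and highest on day 1 in rest cells and tenocytes. The limit of 10% mitochondrial UMIs bounds these sums, and without any filter on cells the day 1 log2 ratio of mitochondrial genes in rest cells was -0.58, against -0.56 with it.

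Rest cells with 2 or more UMIs from a list of 10 G2/M genes, which mark cells about to divide, were unequally spread over the libraries. They numbered 47 in quiescent, 888 on day 1, 1261 on day 2, 825 on day 4 and 113 on day 14. On day 2 the subunit sum was 28203 CPM in these cells and 24037 CPM in the other rest cells (1.17-fold, 1.168 to 1.179), with complex II at 1.34-fold and complex V at 1.27-fold, and on day 4 it was 1.11-fold. On day 1 the limit did not mark dividing cells: Hmgb2, which is not restricted to mitosis, made up 79.7 of the 103 CPM of the list, and the other 9 genes summed to 22.8 CPM, against 31.3 CPM in quiescent, whereas they summed to 945 CPM on day 2. Hmgb2 also made up most of the list in quiescent (52.0 of 83.3 CPM) and on day 14 (54.0 of 71.0 CPM). The other 9 genes summed to 16.9 CPM on day 14. Cells with G2/M genes also had more UMIs, with a median of 16366 against 7310 on day 2. Without them, 0 of 74 subunit genes were at least 2-fold higher on day 2, where 210 of 5793 genes were. With them 8 were, where 687 of 6074 genes were. The log2 ratio of the sum was 0.19 without them, against 0.35 with them. The part of depth in these values was not tested.

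Mural cells, the pericytes and smooth muscle cells of vessels, held a larger share of subunit RNA than the rest at every time point. The sum was 31487, 29468, 29965, 30902 and 32969 CPM in mural cells of the quiescent, day 1, day 2, day 4 and day 14 libraries, against 21082, 26606, 26931, 23045 and 21025 CPM in rest cells. The lowest mural value was above the highest rest value. The mean was 30958 ± 1372 CPM in mural cells and 23738 ± 2886 CPM in the rest (SD, n = 5 libraries), a mean log2 ratio of 0.39 (SD 0.23), higher in 5 of 5 libraries (exact sign-flip test, two-sided, p = 0.062, the smallest that 5 libraries allow, and 0.107 adjusted over 12 comparisons). The ratio was 1.49-fold in quiescent, 1.11-fold on days 1 and 2, 1.34-fold on day 4 and 1.57-fold on day 14. These are shares of total UMIs, and the direction turned in 2 libraries with the TMM factors of the fit across genes, which gave 1.22-fold in quiescent, 0.827-fold on day 1, 0.937-fold on day 2, 1.13-fold on day 4 and 1.31-fold on day 14, a mean log2 ratio of 0.10 (SD 0.27, exact sign-flip test, two-sided, p = 0.438). Complex II was higher by 0.54 on the log2 scale, complex IV by 0.49, complex III by 0.47, complex V by 0.38 and complex I by 0.30, each in 5 of 5 libraries by total UMIs and in 3 of 5 with TMM factors. Mural cells were shallower than the rest, with median UMIs of 1427 in quiescent mural cells, against 3883 in the rest. When cells were thinned to 1000 UMIs the quiescent median share was 3.3% in mural cells and 2.1% in the rest, against 3.16% and 2.08% before thinning. This left out 12 of 112 quiescent mural cells and 24 of 1900 rest cells as too shallow. Thinning draws from a cell's own UMIs and leaves its expected share unchanged, so it cannot show the part of depth, which was not tested.

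In the fit across 9431 genes (edgeR's quasi-likelihood test with library as a block, TMM factors, Benjamini-Hochberg adjustment), 75 of the 80 subunit genes passed the filter on low counts. In the class comparisons, rose and fell mean higher and lower than in the rest cells, not changes over time. Of the 75 genes, 8 rose in mural cells and 3 fell at an adjusted p below 0.05, beside 10.6% and 17.2% of all genes tested. Their median log2 fold change was 0.15, against -0.10 over all genes, and 54 of 75 were above 0. The 5 libraries of a class are also the 5 time points, so the spread between them includes changes with time. The scale decided how many genes passed. With TMM factors the share that rose (10.7%) was that of all genes. Scaled by total UMIs alone, 49 of 75 rose (65.3%, beside 21.1% of all genes) and 1 fell (beside 9.51%), and the share of higher genes among all genes called was 68.9%, against 38.3% with TMM. Single libraries mattered as well. Without day 1, 23 of 75 rose (30.7%), where 1068 of 8988 genes did. Without day 4, 4 of 76 rose, where 774 of 8803 genes did. The number was 2 of 75 without quiescent (829 of 9458 genes) and 2 of 75 without day 14 (690 of 8630). Without days 2 and 4 together, 5 of 76 rose, where 870 of 9599 genes did.

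Cox6b2, an isoform of Cox6b1 best known from testis, had the largest rise among the subunit genes. It had 86.4, 33.7, 26.4, 55.0 and 66.1 CPM in mural cells of the quiescent, day 1, day 2, day 4 and day 14 libraries, on 11 to 54 UMIs, against 4.24, 0.562, 5.37, 4.52 and 6.91 CPM in the rest. The groups did not overlap, and the log2 fold change was 3.46 (SE 0.39, edgeR adjusted p = 1.19e-05). Cox8a, which sits in the membrane part of complex IV, had 1668, 1130, 1066, 1385 and 1815 CPM in mural cells, above 701, 748, 829, 654 and 759 CPM in the rest, with a log2 fold change of 0.62 (SE 0.15, edgeR adjusted p = 0.00736). The call for Cox6b2 was kept in 15 of 15 alternative fits and that for Cox8a in 14.

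Among the other 6 genes that rose were Sdhc (log2 0.59, SE 0.18), the complex I subunits Ndufs8 (0.59, SE 0.17) and Ndufa9 (0.41, SE 0.13), and the complex V subunits Atp5b (0.55, SE 0.16) and Atp5g3 (0.51, SE 0.15), with edgeR adjusted p from 0.0190 to 0.0304. Each of these 5 was higher by CPM in 5 of 5 libraries, and each kept its call in 9 to 11 of 15 alternative fits. Atp5b had 1363, 1856, 1407, 1616 and 1468 CPM in mural cells, against 595, 1371, 1192, 787 and 600 CPM in the rest, so the lowest mural value was just under the highest of the rest.

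Of the 3 genes that fell in mural cells, Ndufa4, an accessory subunit first assigned to complex I and since found in complex IV, differed most from the rest. It had 91.5, 255, 558, 120 and 135 CPM in mural cells and 423, 666, 808, 539 and 388 CPM in the rest, lower in 5 of 5 libraries, with a log2 fold change of -1.73 (SE 0.25, edgeR adjusted p = 0.000145), a call kept in 15 of 15 alternative fits. Cox7a2l fell by 0.48 on the log2 scale (SE 0.13, edgeR adjusted p = 0.0103) and Ndufv3 by 0.34 (SE 0.12, edgeR adjusted p = 0.0484). Those calls were kept in 8 and 5 of 15 alternative fits.

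**Figure D4:**
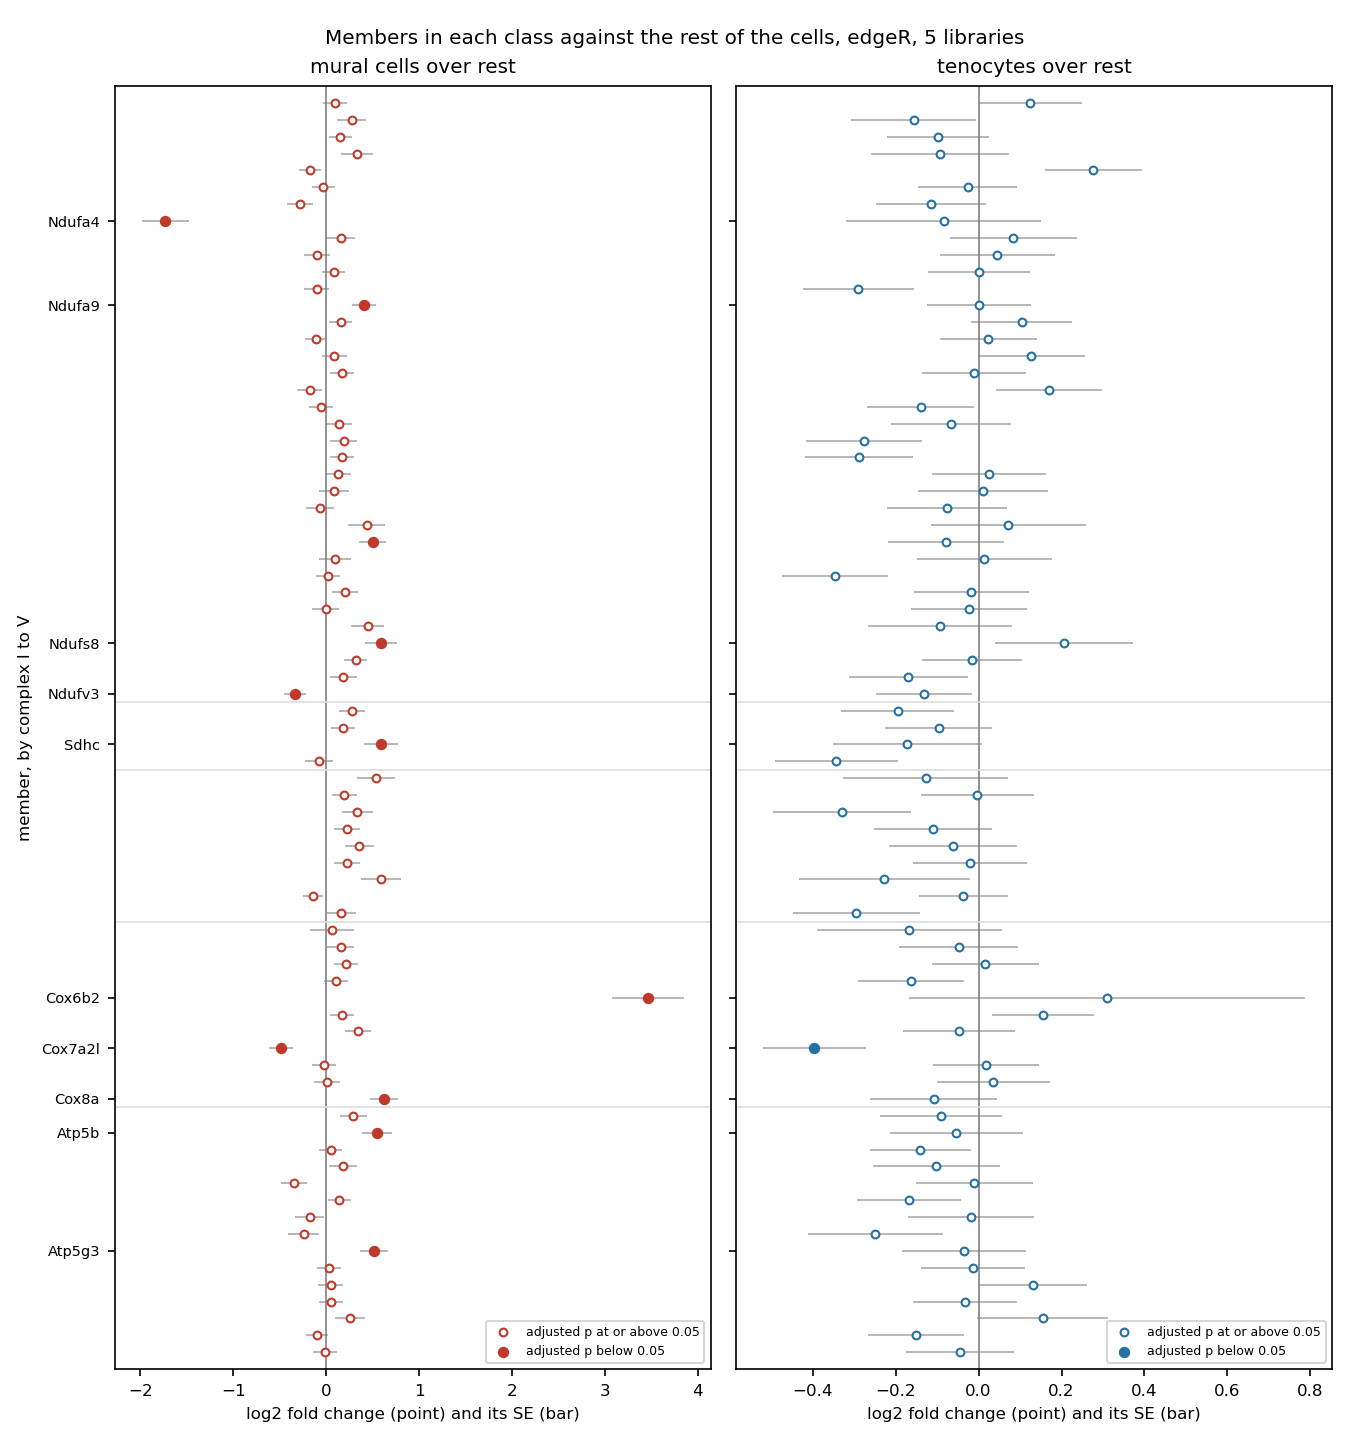
Log2 fold change (x axis; point, with its SE as a bar) of the 75 subunit genes tested, by complex down the page, for mural cells over rest (left) and tenocytes over rest (right), from edgeR on 5 libraries; filled points had an adjusted p below 0.05, and labels mark called genes that the text names. The 2 panels have different x scales. Cox6b2 at 3.46 and Ndufa4 at -1.73 stand apart in mural cells, and Cox7a2l is the only filled point in tenocytes.

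At 2 complex IV positions, other isoforms also made up a larger share of the pair's RNA in mural cells than in the rest. Ndufa4l2, the relative of Ndufa4 that is induced under low oxygen, had 3066, 1116, 1560, 2377 and 2773 CPM in mural cells of the 5 libraries in time order, against 90.6, 11.9, 49.8, 205 and 112 CPM in the rest (edgeR log2 4.64, SE 0.41, adjusted p = 1.08e-06). It made up 97.1% (exact interval 95.5 to 98.3), 81.4%, 73.6%, 95.2% and 95.4% of the UMIs of the Ndufa4 and Ndufa4l2 pair in mural cells, against 17.6%, 1.76%, 5.80%, 27.5% and 22.3% in the rest. Tenocytes had 26.4%, 4.25%, 22.8%, 24.6% and 14.0%. The share was lowest on days 1 and 2 in mural cells and in the rest. UMIs of 3' libraries count molecules and are not scaled by transcript length.

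Cox4i2, the Cox4 isoform known from lung and from oxygen-sensing vessel cells, had 951, 275, 352, 448 and 795 CPM in mural cells, against 1.37, 0.305, 1.61, 1.33 and 1.53 CPM in the rest (edgeR log2 8.49, SE 0.30, adjusted p = 3.45e-11). It was 47.5% (42.4 to 52.5) of the pair with Cox4i1 in quiescent mural cells, 17.2% on day 1, 20.03% on day 2, 23.8% on day 4 and 35.6% on day 14. Its partner Cox4i1 had 1052, 1323, 1407, 1434 and 1441 CPM in the same cells. The share of Cox6b2 in its pair was also lowest on days 1 and 2, at 11.3%, 4.46%, 3.16%, 6.79% and 8.27% in time order, on few UMIs and with wide intervals (6.70 to 17.4 in quiescent). Mural markers of the rule summed to 15563 CPM in quiescent mural cells, 4350 on day 1, 4225 on day 2, 12954 on day 4 and 16650 on day 14, also lowest on days 1 and 2; their part in the isoform shares was not tested. Progenitor markers summed to 3100 to 7215 CPM in mural cells.

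**Figure D5:**
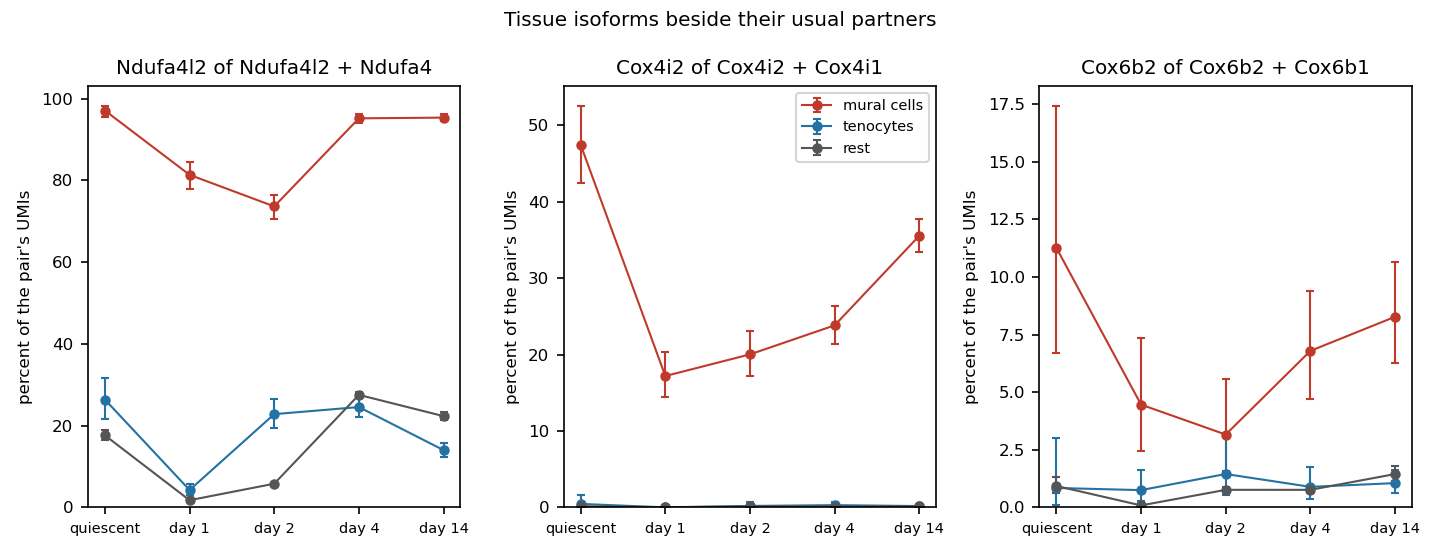
Percent of the UMIs of an isoform pair (y axis, from 0, with its own scale in each panel) that came from Ndufa4l2, Cox4i2 or Cox6b2, in the 5 libraries (x axis), for mural cells, tenocytes and rest cells; bars are exact 95% intervals of the count. Mural cells lie above both other classes throughout, from 73.6% to 97.1% for Ndufa4l2.

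The muscle isoforms Cox6a2, Cox7a1 and Cox8b were scarce. Cox7a1 had 9.99 CPM in quiescent rest cells, 0.281 CPM on day 1, 1.36 CPM on day 2, 2.43 CPM on day 4 and 4.98 CPM on day 14. Mural cells had 61.0 CPM of it in the quiescent library, on 12 UMIs, and 3.33 to 20.8 CPM later. Cox8b reached 14.4 CPM in day 14 tenocytes and 8.35 CPM in day 14 rest cells, and Cox6a2 stayed at or below 2.41 CPM in every class. The 10 myofibre genes, Acta1 and Ckm among them, summed to 9.59 to 26.7 CPM in mural cells, where Myh4, Myh1 and Atp2a1 were at 0, to 6.92 to 52.4 CPM in tenocytes and to 16.7 to 64.0 CPM in the rest; their part in these isoform levels was not tested. Cox7b2 had 0 UMIs in every class and library, and Cox8c had 1. The floor of 3 UMIs was 5.93 CPM in quiescent tenocytes and 15.3 CPM in quiescent mural cells, so levels below that were not detectable there.

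Tenocytes differed little from the rest in these genes. They had 22512, 24754, 23213, 24037 and 21320 CPM in the 5 libraries in time order, against 21082, 26606, 26931, 23045 and 21025 CPM in the rest, with a mean log2 ratio of -0.03 (SD 0.13, n = 5, exact sign-flip test, two-sided, p = 0.688). Complex II was lower in 5 of 5 libraries by 0.15 on the log2 scale (p = 0.062, exact sign-flip test). In the edgeR fit 0 subunit genes rose, where 6.73% of all genes did, and 1 fell, where 8.72% did, and 6 had an unadjusted p below 0.05. DESeq2 called 1 higher and 1 lower, beside 793 and 692 of 9431 genes. Cox7a2l was the one that fell, with 192, 172, 374, 341 and 313 CPM in tenocytes and 333, 209, 405, 413 and 412 CPM in the rest, lower in 5 of 5 libraries (log2 -0.40, SE 0.12, edgeR adjusted p = 0.0432). That call was kept in 5 of 15 alternative fits. Among mitochondrially encoded subunits, mt-Cytb of complex III (log2 0.49, SE 0.13, edgeR adjusted p = 0.0150) and mt-Nd4 of complex I (0.40, SE 0.12, edgeR adjusted p = 0.0392) rose in tenocytes, and 11 of the 13 did not pass.

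Ratios over quiescent were also read within the other classes. In tenocytes 7 subunit genes were at least 2-fold higher on day 1 than in quiescent (13.3% of all genes compared) and 4 lower (21.6%), and in mural cells 1 was higher (12.9%), which was Ndufa4, and 6 lower (27.3%). On day 2 tenocytes had 0 higher (11.5%) and 7 lower (16.5%), and mural cells 2 higher (15.3%) and 8 lower (30.0%). On day 4 tenocytes had 1 higher (11.4%), Sdhd, and 5 lower (13.6%), and mural cells 0 higher (13.7%) and 6 lower (21.3%). On day 14 tenocytes had 0 higher (5.57%) and 1 lower (3.34%), and mural cells 0 higher (8.83%) and 2 lower (10.5%). Atp5k was lower in all 4 injured libraries in both classes. The sum was 1.10-fold of quiescent in day 1 tenocytes and 0.936-fold (0.908 to 0.965) in day 1 mural cells, beside 1.26-fold in rest cells. The median log2 ratio of all genes compared was -0.11 in day 1 tenocytes and -0.26 in day 1 mural cells, beside 0.20 and -0.10 for the subunit genes. Complex III was 0.936-fold of quiescent in day 1 mural cells and 1.38-fold in rest cells. Complex IV was 0.785-fold of quiescent in day 1 mural cells, 0.993-fold in tenocytes and 1.10-fold in rest cells. Complexes V and II were above quiescent in day 1 mural cells, at 9247 and 882 CPM, against 8328 and 819 CPM.

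Genes around the chain were counted from lists that fix the pathway rather than the response. In rest cells, 5 of 13 citric acid cycle genes were at least 2-fold higher on day 1 (beside 15.5% of all genes) and 3 on day 2 (beside 11.3%), with none lower (beside 24.3% and 17.4%), and the list summed to 865, 1767, 1563, 1157 and 909 CPM in time order. Mdh2, malate dehydrogenase of the mitochondrion, had 182, 623, 444, 308 and 193 CPM. Of the 13 glycolysis genes compared, 7 were 2-fold higher on day 1 and 9 on day 2, beside the same 15.5% and 11.3%. Ldha, lactate dehydrogenase A, had 262, 1488, 1219, 651 and 265 CPM and Pkm, pyruvate kinase, 199, 801, 1129, 528 and 236 CPM. The median log2 ratio on day 1 was 1.25 for glycolysis and 0.73 for the citric acid cycle, beside 0.45 for the subunits and -0.15 for all genes.

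Assembly factors, which build the complexes but are not part of them, were mixed: of 28 compared on day 1, 7 were 2-fold higher (beside 15.5% of all genes) and 3 lower (beside 24.3%), with Ndufaf4 at 117 CPM on day 1, against 41.3 CPM in quiescent, and the copper chaperone Cox17 at 38.1 CPM, against 92.1 CPM. Cox17 was highest in the quiescent library in each class, with 26.8 to 38.1 CPM later in rest cells. Tenocytes had 77.1 CPM of it in quiescent and 24.2 to 39.5 CPM later, and mural cells 142 CPM and 19.3 to 72.2 CPM. Time point and library cannot be told apart for Cox17. The electron carrier Cycs (cytochrome c) had 107, 258, 141, 100 and 81.0 CPM in time order. Of the regulators of mitochondrial biogenesis, Ppargc1a, known as PGC-1alpha, had at most 2.25 CPM in any rest library. Myc was at 149 CPM on day 1, against 72.6 CPM in quiescent, the only one of 4 compared that was 2-fold higher. In mural cells Ppargc1b, a relative of Ppargc1a, was higher than in the rest (52.9 ± 46.0 CPM in mural cells and 2.82 ± 1.65 CPM in the rest, SD, n = 5, with log2 3.79, SE 0.28, edgeR adjusted p = 1.59e-07). Within mural cells Ppargc1b had 122, 26.5, 14.4, 23.3 and 78.3 CPM in time order. Of 14 glycolysis genes tested in mural cells, 4 rose (beside 10.6% of all genes), Pfkl, Hk1, Pfkm and Aldoa, and 1 (beside 17.2%), Hk2, fell by 2.17 on the log2 scale (SE 0.30, edgeR adjusted p = 7.87e-05). In the citric acid cycle list 2 of 13 rose, near the 10.6% of all genes, among them Idh3g, a subunit of NAD-dependent isocitrate dehydrogenase (log2 0.67, SE 0.17, edgeR's quasi-likelihood test).

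Transcript length moved with the ratios. Across the 74 genes compared in rest cells, Spearman's rho between the length of the longest annotated coding transcript and the log2 ratio was 0.52 on day 1, 0.54 on day 2, 0.55 on day 4 and 0.41 on day 14, whereas over all genes it was -0.31, -0.35, -0.30 and -0.36. Genes longer than the subunits' median of 913 bases had a median log2 ratio of 0.66 on day 1 and the shorter ones 0.09. The rho is a description across genes, which share their libraries and are not independent.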

How the data were processed

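The study's 5 droplet libraries hold raw UMI counts per gene and barcode, deposited by the authors as whole numbers with no normalization. Cell Ranger and the build mm10 are listed in the submitters' processing notes. Neither its version nor how it told cells from empty droplets is given in the sources used here. In all, the 5 libraries held 17213 barcodes, of which 17085 passed the limits of 500 genes and 10% mitochondrial UMIs, and 6 cells that met both class rules were left out.

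UMIs were summed per library and class and expressed as CPM. Folds between libraries carry exact conditional binomial intervals and no test. Classes were compared with edgeR 4.0.16 in R 4.3.3 (glmQLFit, TMM, filterByExpr, library as block, Benjamini-Hochberg over 9431 genes, called below 0.05), tested on simulated data, with DESeq2 1.42.0 as an alternative. Sums of complexes were compared by exact sign flips. Genes below 20 CPM in both libraries were not compared over time. Gene positions and lengths are from GENCODE M21 (GRCm38). Reads that fit near-identical copies of a subunit gene could have been split or dropped in counting, which was not examined.

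Named genes were the 3 of highest level per complex, the 3 highest and lowest ratios per day, the 4 highest and lowest calls per class, the library-set genes, the Sdh and Atp5g genes, the isoform pairs and at most 3 per companion list; Ndufa12, Ndufa11, Ndufa9 and companion genes beyond 3 were added after their values were seen. Some genes that these rules name are not reported here. The members, gene lists and tests were chosen with earlier results of these data known.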

Additional observations from a re-analysis of the deposited data

Results flagged for a closer look

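By CPM, mural cells and rest cells went opposite ways against quiescent for some sums and days, with count intervals that did not hold 1 on either side. The median log2 ratio of all genes compared in mural cells was itself -0.26 on day 1 and -0.29 on day 2. Beside it, the median of the subunit genes there was -0.10 and -0.03, above that of all genes, as in rest cells. The difference itself was not tested, since each class has 1 library per time point. For all subunit genes the log2 ratio in mural cells minus that in rest cells was -0.43 on day 1 (-0.10 in mural cells, 0.34 in the rest) and -0.42 on day 2 (-0.07 and 0.35). For complex I it was -0.39 on day 1, -0.38 on day 2 and -0.22 on day 4. For complex III it was -0.49 on day 2, and for complex IV -0.48 on day 1 and -0.45 on day 2. For complex V on day 14 it was 0.14, with mural cells above quiescent and the rest below it. On days 1, 2 and 4 complexes II and V were above quiescent in mural cells, as in the rest. Mural cells then had 9247, 9108 and 9295 CPM of complex V, against 8328 in quiescent, and 882, 918 and 1010 CPM of complex II, against 819. The sign in mural cells depends on scaling and depth: for all subunit genes DESeq2 factors gave 0.13 on day 1 and 0.19 on day 2, and cells of at least 3647 UMIs gave 0.15 and 0.14, with only 8 of 112 quiescent mural cells at that depth.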

How the results depend on the processing

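No paired analysis was possible because the time points, each 1 library, share only 1 replicate number; classes were compared within libraries. The log2 ratio of all subunit genes over quiescent in rest cells (0.34, 0.35, 0.13 and -0.0039 on days 1, 2, 4 and 14) was 0.69, 0.51 and 0.20 on days 1, 2 and 4 with TMM factors. With DESeq2 factors it was 0.91, 0.65, 0.28 and 0.0055 on the 4 days. Without mitochondrial and ribosomal genes in the total it was 0.46 and 0.45 on days 1 and 2. In cells of at least 3647 UMIs it was 0.34, 0.36, 0.14 and -0.019, in Pdgfra cells 0.35, 0.38, 0.12 and -0.022, and for genes of no library set 0.31, 0.37 and 0.14 on days 1, 2 and 4. As a mean over cells it was 0.29, 0.093 and 0.017 on days 2, 4 and 14, without G2/M cells 0.19 and 0.081 on days 2 and 4, and without cells of highest UMIs 0.12 on day 4.

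Counts past 2-fold in rest cells moved too. On day 1, 25 were higher and 1 lower with TMM, and 37 and 0 with DESeq2 factors. At a fold of 1.5, 30 were higher and 7 lower, beside 1590 and 2191 of 6045 genes. With no filter on low values 6 were lower, beside 6644 of 17575 genes. On day 2, 15 were higher with TMM and 21 with DESeq2 factors. Without mitochondrial and ribosomal genes in the total 13 were, beside 910 of 6826 genes. In deep cells 5 were higher (650 of 6038 genes), and as a mean over cells 5 (452 of 6010). Without G2/M cells 0 were higher (210 of 5793), and 27 at a fold of 1.5 (1503 of 6074). Lower on day 2 were 1 outside the library set, 7 at a fold of 1.5 (1835 of 6074 genes) and 7 with no filter (4956 of 17955). On day 4, 6 were higher and 7 lower at a fold of 1.5, beside 969 and 1254 of 5945 genes. With no filter 1 was higher (3827 of 18352 genes), and outside the library set 1 was lower. On day 14, 2 were lower at a fold of 1.5 (206 of 5757 genes). With no filter 1 was higher and 2 lower, beside 2517 and 1472 of 17477 genes.

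In tenocytes 1 rose with DESeq2 (beside 793 of 9431 genes) and 1 with a class limit of 10 UMIs (beside 637 of 7884). The number that fell there was 0 scaled by total only (beside 754 of 9431 genes) or with no library block (271 of 9431). It was also 0 with a class limit of 3 UMIs (679 of 9785) or 10 UMIs (670 of 7884). With 2 classes in the fit it was 0 (891 of 11250). It was 2 with no filter (1451 of 20042), and from 0 to 2 with 1 library left out. In mural cells 17 rose with DESeq2 (beside 1188 of 9431 genes) and 49 by total only (1990 of 9431). With no filter 2 rose (1140 of 20042), and with no library block 2 (587 of 9431). With mural and rest cells kept between the lower and upper quartiles of mural UMIs in each library, 21 rose (1071 of 7497). It was 5 without the day 2 and day 4 libraries, and 2 to 23 with 1 library left out. The number that fell in mural cells was 1 by total only (beside 897 of 9431 genes) and 6 with no filter (2588 of 20042). It was 1 with no library block (586 of 9431), 1 with 2 classes (1276 of 10679) and 1 to 3 with 1 library left out. The mean log2 ratio of tenocytes over rest changed sign where it lay near 0: for all subunit genes it was -0.059 without quiescent and 0.018 without day 2, and the other single libraries lay between. With 1 library left out complex I ran from -0.038 (without quiescent) to 0.040 (without day 2), complex IV from -0.037 (without day 4) to 0.029 (without day 2) and complex V from -0.078 (without quiescent) to 0.019 (without day 2). For complex I it was also -0.0043 and -0.010 with class limits of 3 and 10 UMIs, -0.045 without mitochondrial and ribosomal genes in the total, and -0.024 with TMM factors. Those factors for class sums, the fit without the day 2 and day 4 libraries and the counts outside the library set were chosen after seeing the data. The cause of these changes was not tested.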
